A study of Mus musculus with 8 samples.

Results

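CUT&RUN for NF-YA was compared between muscle stem cells (MuSCs) with and without TAF4A, and the peaks with more NF-YA signal after loss of TAF4A are described here. The peaks were chosen by their measured values. Of the 7196 peaks in the table, 4689 had a mean value above 10 over the 4 NF-YA libraries, and 549 of these (11.7%) had a ratio of the Taf4asKO mean to the control mean above 1.5. The same rule in the other direction gave 453 peaks (9.66%) that were lower in Taf4asKO, and 3687 peaks lay between. With equal library totals the 2 counts were 832 and 321, and after centring on strong peaks they were 1004 and 253. With equal medians they were 546 and 496. Higher peaks made up 54.8% of both as deposited and 72.2%, 79.9% and 52.4% under these scalings in turn. The median log2 ratio of all peaks was -0.06 as deposited and 0.08, 0.16 and -0.08 under the scalings. Since this contrast selected the peaks, their difference between genotypes is not a finding, and counts from a test of it are given as a description only. What the rule did not use is their position, their sequence and, for peaks chosen in 1 replicate, the values in the other. The authors merged the peaks called in the libraries, so those values may have helped to decide which peaks entered the table.

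The cells were activated, proliferating MuSCs grown in vitro from C57BL/6 mice. The Taf4asKO cells came from tamoxifen-treated mice with loxP-flanked exons in *Taf4a* and a Cre recombinase driven by *Pax7* (Pax7CreERT, Taf4a fl/fl), so that the gene was deleted in MuSCs. According to the methods of the study, controls were littermates that carry the same Taf4a fl/fl alleles, with or without Cre, and tamoxifen was given at 8 to 20 weeks of age. Tamoxifen is listed there for the Taf4asKO mice, and whether controls also received it is not stated in that list. There were 2 NF-YA libraries per genotype, and IgG libraries were not analysed here. The study lists them as replicates, and neither the labels nor that list says whether they came from separate mice, so the spread between libraries may be technical. A CUT&RUN value is a binding signal and not a level of expression, so neither the deletion nor the identity of the cells was checked with marker genes.

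NF-Y is a trimer of NF-YA, NF-YB and NF-YC that binds the pentamer CCAAT, found in many promoters shortly upstream of the transcription start. NF-YA makes the sequence-specific contacts with DNA. TAF4A is a subunit of TFIID, the general factor that binds core promoters together with TBP. CUT&RUN uses an antibody to direct a nuclease to chromatin and reads the DNA that is released around the bound protein.

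The following sequences are the central bases of peaks that the results turn on, on the plus strand of GRCm38, read 5′ to 3′. Capitals mark CCAAT or its complement ATTGG, and TGANTCA, which includes the site of the AP-1 family of Fos and Jun proteins. The first 4 are distal peaks, namely an intronic peak of *Banp* (chr8:122013781-122013980), an intronic peak of the long non-coding RNA *Gm33782* (chr10:96325490-96325689) with 4 CCAAT pentamers, a peak upstream of *Mef2d* (chr3:88140275-88140474) and an intronic peak of *1700067G17Rik* (chr1:89019810-89020009). The last 3 of these hold TGANTCA as well as CCAAT.
Banp: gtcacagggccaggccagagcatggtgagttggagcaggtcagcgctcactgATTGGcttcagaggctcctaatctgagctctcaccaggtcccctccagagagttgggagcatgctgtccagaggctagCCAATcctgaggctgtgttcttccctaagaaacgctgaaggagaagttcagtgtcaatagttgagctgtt
Gm33782: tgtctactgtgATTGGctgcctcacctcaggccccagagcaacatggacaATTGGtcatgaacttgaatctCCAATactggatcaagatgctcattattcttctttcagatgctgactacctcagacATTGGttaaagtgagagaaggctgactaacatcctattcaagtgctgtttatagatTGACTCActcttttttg
Mef2d: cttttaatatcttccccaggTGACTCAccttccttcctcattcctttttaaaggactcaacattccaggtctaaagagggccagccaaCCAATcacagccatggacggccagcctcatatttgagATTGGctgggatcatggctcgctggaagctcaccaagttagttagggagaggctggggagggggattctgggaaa
1700067G17Rik: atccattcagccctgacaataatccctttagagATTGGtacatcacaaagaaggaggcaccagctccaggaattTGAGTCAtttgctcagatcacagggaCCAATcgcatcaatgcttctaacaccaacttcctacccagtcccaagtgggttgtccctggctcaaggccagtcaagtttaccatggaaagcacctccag

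Among promoters, *Pnrc1* (chr4:33290164-33290354) shows 3 closely spaced pentamers, and *B2m* (chr2:122147520-122147685) and *H2-K1* (chr17:34000348-34000496) are shown up to the annotated exon. The intronic peak of *Creb3l2* (chr6:37431521-37431720), the strongest of the 549, is shown because its centre holds neither motif.
Pnrc1: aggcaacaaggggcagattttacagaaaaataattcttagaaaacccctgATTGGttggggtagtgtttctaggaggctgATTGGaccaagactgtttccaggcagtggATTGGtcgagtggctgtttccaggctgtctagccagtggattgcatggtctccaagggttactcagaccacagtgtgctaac
B2m: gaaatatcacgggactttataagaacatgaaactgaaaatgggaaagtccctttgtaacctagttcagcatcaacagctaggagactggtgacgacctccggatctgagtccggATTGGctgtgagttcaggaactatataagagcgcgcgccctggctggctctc
H2-K1: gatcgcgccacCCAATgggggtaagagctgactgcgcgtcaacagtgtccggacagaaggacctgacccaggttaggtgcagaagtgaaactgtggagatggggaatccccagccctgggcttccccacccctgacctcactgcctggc
Creb3l2: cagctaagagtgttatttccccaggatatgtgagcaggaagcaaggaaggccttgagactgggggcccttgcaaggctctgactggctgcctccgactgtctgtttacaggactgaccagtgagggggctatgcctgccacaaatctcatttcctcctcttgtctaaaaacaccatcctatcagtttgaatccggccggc

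Most of the 549 peaks were weak. Values are read counts per peak, normalised and rounded by the authors. The median of the mean value was 17, with a range from 10.25 to 156.25, against 46.5 for the peaks between. A mean of 20 or less was found in 351 peaks, a mean above 50 in 30 and a mean above 100 in 2. By strength, the higher peaks were 27.0% of all peaks with means of 10 to 15, 22.8% at 15 to 20, 11.8% at 20 to 50 and 1.60% above 50. The lower peaks were spread less steeply, with 16.9%, 14.4%, 9.85% and 4.95% in the same ranges. The comparisons of position and motifs are therefore also given for peaks of the same range of mean value.

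Few reads stood behind the control values. One read was worth 1.04 units in control replicate 1 and 3.26 in control replicate 2, but only about 0.43 and 0.68 in the Taf4asKO replicates 1 and 2. Among the 549 peaks the median was 12.4 reads in control replicate 1 and 3.07 in control replicate 2. At most 3 reads in control replicate 2 were counted in 302 of them, compared with 611 of all 4689 peaks, and 12 had a value of 0 there. Without control replicate 1 the rule chose 857 peaks, 450 of them in common with the 549. The reads in peaks were fewer in both controls, and their number and the genotype cannot be told apart. A weak peak may have been called in the Taf4asKO libraries alone, and which library called each peak was not examined.

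**Figure D1:**
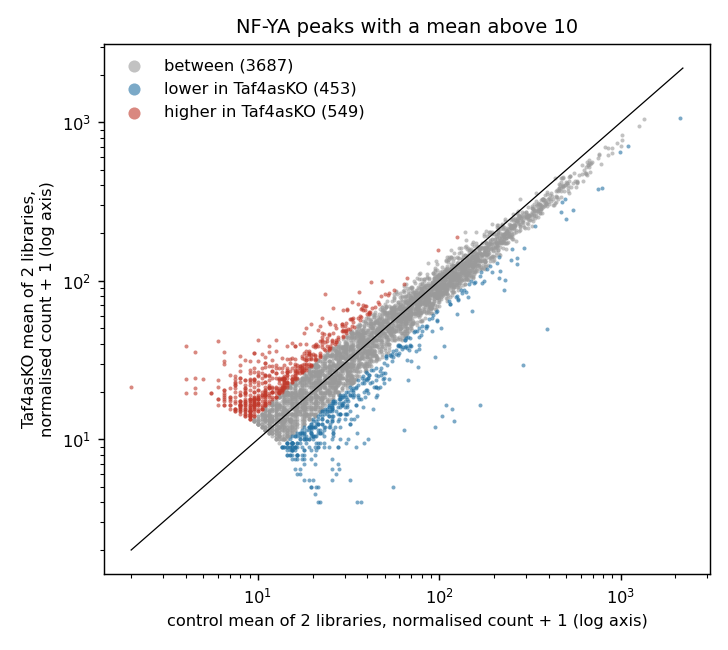
Mean NF-YA signal of 2 control libraries (x axis) and of 2 Taf4asKO libraries (y axis) for the 4689 peaks with a mean above 10, both on a log axis in normalised counts with 1 added. The 549 higher peaks in red lie mostly at the weak end, the 453 lower peaks in blue reach further up, and the line marks equal values.

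The excess was shared by both Taf4asKO libraries at most of these peaks. In 491 of the 549 both Taf4asKO values lay above both control values, as they did at 896 of all 4689 peaks (19.1%). The ratio exceeded 2 at 201 peaks and 3 at 57, and its median was 1.87. Of the 549 peaks, 16 had a limma adjusted p under 0.05, and these were all 16 higher calls among 4746 tested peaks (0.337%). At an unadjusted p under 0.05 there were 306, out of 330 among all tested peaks. Without any 1 of the 4 libraries limma called 0 peaks, with 43 to 356 of the 549 at an unadjusted p under 0.05, out of 45 to 644 among all peaks. The counts describe how many peaks exceeded the replicate spread and support nothing further, because the same contrast made the selection.

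Peaks chosen in one pair of libraries were read in the other pair. The rule, applied to the libraries numbered 1 alone, chose 565 peaks. In the libraries numbered 2, 429 of these (75.9%, 95% Wilson interval 72.2% to 79.3%) were higher in Taf4asKO, compared with 51.2% of all 4678 peaks past the same mean. The median log2 ratio, with 1 added to both values, was 0.93 where the peaks were chosen and 0.58 where they were read. Chosen in the libraries numbered 2, 856 peaks gave 527 (61.6%, 58.3% to 64.8%) that were higher in the libraries numbered 1, against 36.5% of all peaks, and a median log2 ratio of 0.92 when chosen and 0.22 when read. Among weak peaks, with means of 10 to 20, the baseline was higher and the gap smaller, with 69.6% of the chosen and 56.9% of all peaks in this direction and 72.7% and 55.1% in the other. The size of the difference was thus smaller in libraries that had not made the choice. These libraries were not independent of the peak set, since peaks called in all libraries had been merged.

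At the threshold, the peaks with the smallest ratios inside it were in an intron of *Gm43413* (values of 28 and 29 in control, 43 and 43 in Taf4asKO), in an intron of *Creb3l2* (132 and 117, 187 and 189) and at the start of *Nup43* (27 and 20, 33 and 38). Just outside, with ratios of 1.5, were for example an intergenic peak assigned to *Fndc3b* (37 and 33, 55 and 50) and an intronic peak of *5330406M23Rik* (10 and 10, 13 and 17). In all 26 peaks had a ratio of exactly 1.5, so the border falls where peaks are dense.

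The higher peaks were mostly distal. By GENCODE, 162 of 549 (29.5%, interval 25.8% to 33.5%) had their centre no more than 1000 bases from a gene start, 226 (41.2%) were in introns, 134 (24.4%) intergenic, 16 in other exons and 11 in UTRs. Of the peaks between, 60.2% were at gene starts and 21.8% in introns. Of the lower peaks, 25.6% (21.8% to 29.8%) were at gene starts and 40.2% in introns, with intervals that overlap those of the higher peaks. At the mean values of the higher peaks, 39.7% of the peaks between would be at gene starts.

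Within ranges of mean value the gap depended on strength. At means of 10 to 15, 26.6% of the higher peaks (interval 21.2% to 32.8%) and 29.4% of the peaks between (25.4% to 33.7%) were at gene starts, with overlapping intervals. At means of 20 to 50 the shares were 35.1% (28.3% to 42.6%) and 53.3% (50.3% to 56.2%). Above 50 they were 36.7% (21.9% to 54.5%, 11 of 30 peaks) and 78.7% (76.7% to 80.5%). In the ranges above 20 the intervals did not overlap.

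**Figure D2:**
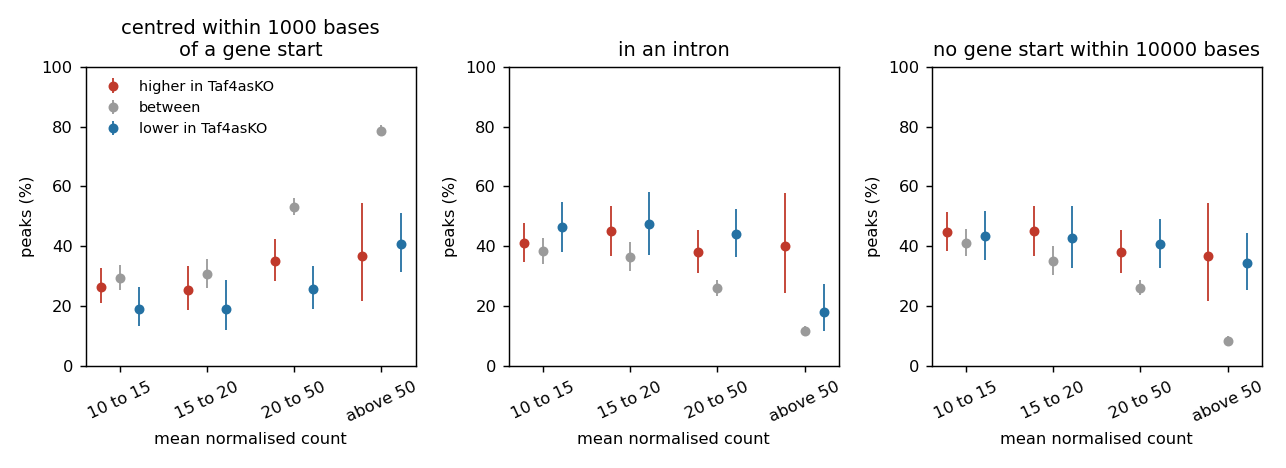
Percent of peaks at gene starts, in introns and without an assigned gene (y axes) by range of mean normalised count (x axes), for higher, between and lower peaks, with 95% Wilson intervals as bars. Higher peaks and peaks between lie close together at means of 10 to 15 and apart above 50, where 36.7% of the higher peaks and 78.7% of the peaks between are at gene starts.

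The authors assigned a gene to a peak when a start lay within about 10000 bases (up to 10138 from the peak centre), and such a gene need not be its target. They assigned none to 233 of the 549 peaks (42.4%, interval 38.4% to 46.6%), against 20.5% of the peaks between, or 33.4% at the mean values of the higher peaks, and 40.6% of the lower peaks. The other 316 peaks belonged to 311 genes, since 5 genes had 2 each. Protein-coding genes had 239 of these peaks, which were 7.77% of all 3074 peaks assigned to such genes. Long intergenic non-coding RNAs (lincRNAs) had 22 of 113 (19.5%), antisense RNAs 13 of 60 (21.7%), predicted transcripts of the TEC class 14 of 49 (28.6%) and processed pseudogenes 12 of 86 (14.0%). These shares by biotype were not matched for strength. Non-coding genes, here all genes that are not protein-coding, pseudogenes included, had 14.0% of the higher peaks (interval 11.4% to 17.2%). They had 15.7% of the lower peaks (12.6% to 19.3%), and would have 11.5% of the peaks between at the mean values of the higher peaks.

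The distance to the assigned start was spread widely. Its median over the 316 peaks was 1055 bases, compared with 151.5 for the peaks between and 1871 for the lower peaks. Of the 316, 80 were centred within 100 bases of the start and 77 more than 5000 bases away. The centre lay upstream of the start in 195 (61.7%, interval 56.2% to 66.9%), and in 88 of the 101 peaks (87.1%, 79.2% to 92.3%) within 200 bases of a protein-coding start. Of all such peaks 83.8% were upstream, the side on which CCAAT boxes of promoters lie.

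The strongest peaks were a mixed group. The intronic peak of *Creb3l2*, which encodes a membrane-bound transcription factor (chr6:37431385-37431854, 10526 bases from the nearest start), had 132 and 117 in the controls and 187 and 189 after deletion. A peak in the lincRNA *1700067G17Rik* (ENSMUSG00000099378, chr1:89019734-89020084) had 42 and 52 in the controls and 101 and 95 after deletion. A peak 5980 bases from the lincRNA *Gm35733* (ENSMUSG00000114843, chr13:47355182-47355630) had 36 and 46 against 103 and 92. In these distal peaks the replicates of each genotype lay close together and the genotypes did not overlap. Also among the 10 strongest were an intronic peak of *Klhl29* (chr12:5108636-5109020; 49 and 62, 92 and 80), a peak near the pseudogene *Rpl17-ps5* (ENSMUSG00000081855, chr5:22609483-22609864; 43 and 55, 92 and 72) and an intergenic peak (chr7:145107728-145108047; 47 and 55, 77 and 83).

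Peaks at 2 more non-coding genes were among the 5 strongest of that kind. The peak near the antisense RNA *Gm11683* (ENSMUSG00000087139, chr11:109795568-109796007) had 44 and 20 in the controls and 72 and 72 after deletion. That near *Gm47196* (ENSMUSG00000113012, chr12:99638039-99638374) had 34 and 42 against 68 and 60. The spread between the control libraries was wide at *Gm11683* and narrow at *Gm47196*, and neither peak overlapped between genotypes.

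At protein-coding starts 140 peaks were higher, with a median ratio of 1.73. In 119 of them both Taf4asKO values lay above both control values, as they did at 19.1% of all 4689 peaks. The same contrast selected them, so nothing is read from this count. The strongest was at *Dcaf15* (ENSMUSG00000037103, chr8:84104753-84105125, 171 bases from the start), which encodes a substrate receptor of a ubiquitin ligase. Its values were 99 and 95 in the controls and 135 and 176 after deletion, and its centre holds no CCAAT. The peak at *Garnl3* (ENSMUSG00000038860, chr2:33130978-33131350) had 76 and 55 against 98 and 107. At *Nfatc3* (ENSMUSG00000031902, chr8:106059268-106059577), a transcription factor activated by calcium signals, values were 66 and 59 against 89 and 101. All 3 stayed close to the threshold, with ratios of 1.60, 1.56 and 1.52.

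*Bmf* (ENSMUSG00000040093, chr2:118549643-118549875), a pro-apoptotic member of the BCL-2 family with 3 CCAAT pentamers 72 bases from its start, had 67 and 36 in the controls and 73 and 93 after deletion. *Pnrc1* (ENSMUSG00000040128, chr4:33290094-33290413), a coactivator of nuclear receptors, had 30 and 39 against 69 and 71. Its ratio of 2.03 was the only one above 2 among the 10 strongest at protein-coding starts, and its Taf4asKO replicates were 2 units apart. At *Bmf* the control replicates were about as far apart as the genotype means.

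The other 5 completed the 10 strongest at protein-coding starts. *Mrpl18* (ENSMUSG00000057388, chr17:12916083-12916363), a protein of the mitochondrial ribosome, had 48 and 42 in the controls and 70 and 74 after deletion. *Taldo1* (ENSMUSG00000025503, chr7:141392020-141392185), the transaldolase of the pentose phosphate pathway, had 54 and 29 against 55 and 77. *Pak4* (ENSMUSG00000030602, chr7:28598182-28598396), a kinase that acts below small GTPases, had 52 and 39 against 60 and 81. The lower Taf4asKO value at *Taldo1* was only 1 unit above the higher control value. *Wwox* (ENSMUSG00000004637, chr8:114439345-114439560), an oxidoreductase gene at a fragile site, had 41 and 36 against 54 and 83, and *Ankzf1* (ENSMUSG00000026199, chr1:75191961-75192124), a factor of ribosome quality control, had 52 and 29 against 61 and 65.

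**Figure D3:**
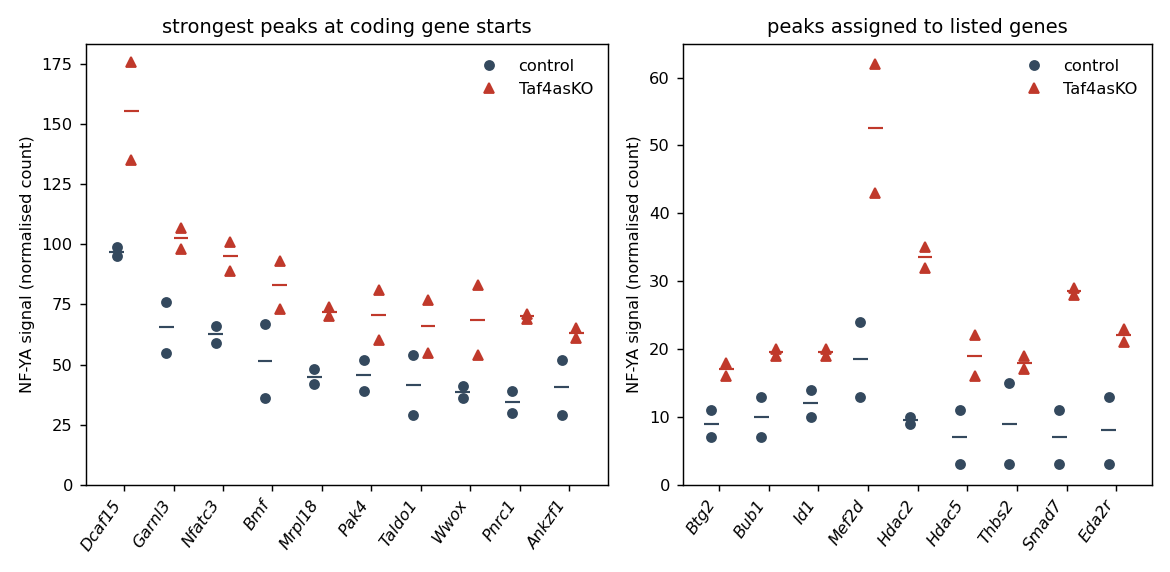
NF-YA signal in normalised counts (y axes) of each library at the 10 strongest higher peaks of protein-coding starts and at the 9 higher peaks assigned to listed genes (x axes), with circles for control, triangles for Taf4asKO and a bar for each mean of 2 libraries. No Taf4asKO value reaches down to a control value, but at *Taldo1* they come within 1 unit, with 54 in control and 55 in Taf4asKO.

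The peaks with the largest ratios were distal and had few control reads. The intronic peak of *Fam117a* (ENSMUSG00000038893, chr11:95343158-95343348) had 2 and 0 in control, about 2 reads in all, and 22 and 19 in Taf4asKO. The intronic peak of *Banp* (chr8:122013777-122013982), whose protein binds CpG-rich promoters, had 3 and 3 against 36 and 39. An intronic peak of *Efcc1* (chr6:87745339-87745615) had 7 and 0 against 38 and 31. No fold is given for them, since control replicate 2 held at most 1 read in each.

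The next largest ratios followed the same pattern. The intronic peak of *Prickle1* (ENSMUSG00000036158, chr15:93591995-93592245), a gene of planar cell polarity, had 7 and 0 in the controls and 26 and 21 after deletion. The peaks in introns of *Gm33782* (chr10:96325432-96325745; 8 and 3, 34 and 35) and *Plxna4* (chr6:32400269-32400478; 4 and 7, 34 and 26), a semaphorin coreceptor, also had few control reads. The other 4 were intergenic, 1 of them 6490 bases from the miRNA *Gm23968* (chr2:160630864-160631052; 3 and 3, 21 and 16) and the rest on chromosomes 13 (71653461 to 71653729; 10 and 0, 34 and 47), 17 (13474862 to 13474990; 3 and 3, 23 and 23) and 15 (64533561 to 64533753; 8 and 0, 26 and 20). None of these 10 peaks was at a gene start.

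Some distal peaks combined a large ratio with more reads. An intergenic peak on chromosome 1 (134065370 to 134065671) had 29 and 16 in the controls and 77 and 85 after deletion. A peak in an intron of *Sv2c* (chr13:96010834-96011489), a synaptic vesicle gene, had 27 and 23 against 72 and 61. One in an intron of *Hspg2* (chr4:137509626-137509874), which encodes the basement membrane proteoglycan perlecan, had 15 and 20 against 52 and 47. These were among the 16 peaks under the limma threshold.

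Genes with known roles in MuSCs and in the processes studied were looked up in 9 lists. NF-YA peaks of the muscle stem cell and myogenic list were higher in 1 of 16 cases, beside 7 that were lower, with backgrounds of 11.7% for higher and 9.66% for lower peaks. The exception was a peak 1998 bases upstream of *Mef2d* (ENSMUSG00000001419, chr3:88140232-88140516), a partner of MYOD in muscle gene activation, with 24 and 13 in the controls and 43 and 62 after deletion. The peak 46 bases from the start of *Mef2d* had 39 and 20 against 28 and 33, which overlapped between genotypes. The median log2 ratio of this list was -0.46, compared with -0.06 over all 4689 peaks.

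Of the chromatin modifier list 2 of 24 peaks (8.33%) were higher, beside the background of 11.7%, and 0 were lower. A peak 8672 bases from *Hdac2* (ENSMUSG00000019777, chr10:36965717-36966027) had 9 and 10 in the controls and 35 and 32 after deletion. The promoter peak of *Hdac5* (ENSMUSG00000008855, chr11:102230196-102230274) had 11 and 3 against 16 and 22, on 1 control read in replicate 2. The median log2 ratio of the list was -0.23.

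In the list of p53 targets and apoptosis genes 2 of 12 peaks were higher and 0 lower. They belonged to *Btg2* (ENSMUSG00000020423, chr1:134087108-134087290; 11 and 7, 18 and 16), an antiproliferative p53 target, at 8079 bases, and to the promoter of *Eda2r* (ENSMUSG00000034457, chrX:97377213-97377345; 13 and 3, 21 and 23), a receptor of the TNF receptor family. In the Notch, Wnt and TGF-beta list 2 of 13 were higher and 1 lower. These were at the start of *Id1* (ENSMUSG00000042745, chr2:152736181-152736295; 14 and 10, 20 and 19), an inhibitor of bHLH factors, and 3573 bases from *Smad7* (ENSMUSG00000025880, chr18:75363855-75364057; 11 and 3, 29 and 28), an inhibitor of TGF-beta signalling. Shares of 16.7% and 15.4% were near the background of 11.7%.

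Of the cell cycle list 1 of 23 peaks (4.35%) was higher and 2 were lower. Most of its peaks had means above 50, where 1.60% of all peaks were higher, and the median log2 ratio was -0.26. The higher one was at the start of *Bub1* (ENSMUSG00000027379, chr2:127831878-127831973), a kinase of the spindle checkpoint, with 13 and 7 in the controls and 19 and 20 after deletion. Of 7 peaks at genes of extracellular matrix and adhesion, 1 was higher, 9801 bases from *Thbs2* (ENSMUSG00000023885, chr17:14703941-14704131; 15 and 3, 17 and 19), and 2 were lower. With backgrounds of 11.7% for higher and 9.66% for lower peaks, 1 of 7 (14.3%) was near the share of higher peaks. The lists of NSL complex and TFIID genes (12 peaks, 3 lower), AP-1 and immediate early genes (8 peaks, 2 lower) and NF-Y subunits (3 peaks, 0 lower) had 0 higher peaks, with median log2 ratios of -0.27, -0.34 and -0.16.

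CCAAT was more frequent in the higher than in the lower peaks, and its shares in the higher peaks and the peaks between had overlapping intervals. Both strands of the central 200 bases were searched. It was found in 474 of 549 higher peaks (86.3%, interval 83.2% to 89.0%), in 87.1% of the peaks between (86.0% to 88.1%) and in 71.1% of the lower peaks (66.7% to 75.1%). In all 7196 peaks the share was 78.5%, and in windows of the same length centred 1000 bases away from the higher peaks it was 23.1%. At the mean values of the higher peaks, 78.8% of the peaks between would hold CCAAT. The pentamer lay at a median of 20 bases from the centre in both sets, and 33.3% of the higher peaks had 2 or more.

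Among weak peaks CCAAT was most frequent in the higher ones. At means of 10 to 15 it was present in 83.9% of the higher peaks (interval 78.5% to 88.2%), 74.0% of the peaks between (69.7% to 77.8%) and 65.4% of the lower peaks (57.1% to 72.9%). Away from gene starts the shares were 85.5% (81.7% to 88.7%), 79.9% (77.8% to 81.9%) and 69.7% (64.6% to 74.4%). The intervals of higher and between peaks did not overlap at means of 10 to 15 and overlapped narrowly away from gene starts. Above 50 they overlapped, with 86.7% of 30 peaks (70.3% to 94.7%) against 93.9%.

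TGANTCA and CAGCTG were searched after the values of the peaks had been seen. The AP-1 letters TGANTCA were more frequent in the higher peaks than in the other sets. They were found in 179 higher peaks (32.6%, interval 28.8% to 36.6%), 14.6% of the peaks between (13.5% to 15.8%) and 19.0% of the lower peaks (15.6% to 22.9%), against 23.9% of all 7196 peaks and 5.56% of windows 1000 bases away. At the mean values of the higher peaks the share in the peaks between would be 24.7%. Away from gene starts it was 43.4% (38.6% to 48.4%) in the higher peaks, 30.9% (28.6% to 33.3%) in the peaks between and 22.3% (18.1% to 27.0%) in the lower peaks.

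In TGANTCA the intervals separated in stronger peaks and not in the weaker ones. At means of 20 to 50 the shares were 29.8% (interval 23.4% to 37.1%) in the higher peaks and 16.3% (14.2% to 18.5%) in the peaks between, and above 50 they were 33.3% (19.2% to 51.2%) and 6.27% (5.23% to 7.50%). At means of 15 to 20 they were 31.6% and 30.5%, with overlapping intervals. Both CCAAT and TGANTCA were present in 152 higher peaks (27.7%, 24.1% to 31.6%) and in 10.5% of the peaks between, or 16.3% at the mean values of the higher peaks. Their median spacing was 44 bases in the higher peaks and 42 in the peaks between.

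The E-box CAGCTG, a site of MYOD and related bHLH factors, was rarer in the higher than in the lower peaks. It was present in 78 higher peaks (14.2%, interval 11.5% to 17.4%) and in 36.2% of the lower peaks (31.9% to 40.7%). In the peaks between it was present in 15.9%, or 21.4% at the mean values of the higher peaks, and in 20.3% of all peaks and 10.1% of windows 1000 bases from the higher peaks. The order of higher, between and lower peaks held in the ranges of 10 to 15, 15 to 20 and 20 to 50, for example with 16.5% (11.2% to 23.8%), 24.5% (20.4% to 29.2%) and 41.7% (31.7% to 52.3%) at means of 15 to 20. In these ranges the intervals of higher and between peaks overlapped, and those of higher and lower peaks did not. A match is a stretch of letters and does not show that a factor was bound.

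**Figure D4:**
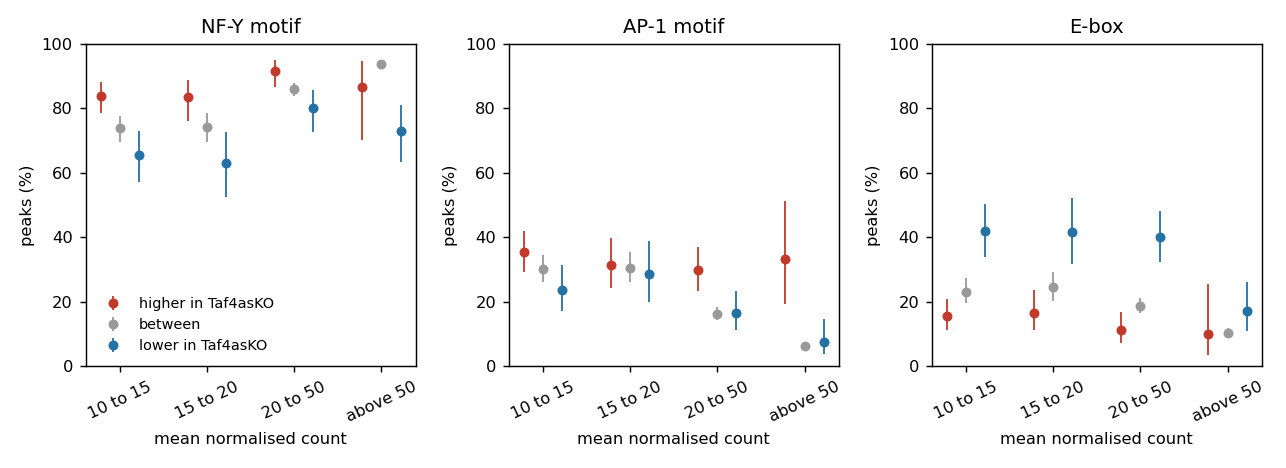
Percent of peaks with CCAAT (NF-Y motif), TGANTCA (AP-1 motif) and CAGCTG (E-box) in their central 200 bases (y axes) by range of mean normalised count (x axes), with 95% Wilson intervals as bars. CCAAT and TGANTCA are more frequent in the higher than in the lower peaks at means of 20 to 50 (29.8% and 16.4% for TGANTCA), and CAGCTG is less frequent (11.3% and 40.0%).

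Repeats made up a small share. In 21 of the 549 higher peaks (3.83%, interval 2.52% to 5.78%) at least 50% of the central 200 bases were masked as repeat in the reference, against 1.52% of the peaks between, or 2.63% at the mean values of the higher peaks. The authors had removed reads that map to several places.

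Some peaks had related sequences. Central windows were aligned with each other by blastn, and families of at least 4 peaks with a mean above 10 were described after their values had been seen. One family of 11 peaks had 7 higher and 0 lower members, beside 11.7% and 9.66% of all peaks, and a median log2 ratio of 0.73. Its windows were 79.2% identical in the median over 139 aligned bases, and only 2 of the 11 were masked as repeat. Of the 7, 1 was at a gene start (*Zfp52*, chr17:21534733-21534965; 9 and 3, 19 and 21), and the others were distal, near *Hdac2* and *Rpl17-ps5* (above), in *Lrrc9* (chr12:72490111-72490358; 9 and 10, 29 and 25) and *Lclat1* (chr17:73112242-73112418; 17 and 7, 13 and 24), and on chromosomes 1 (72144518 to 72144754; 2 and 13, 23 and 22) and 4 (144837526 to 144837829; 10 and 13, 42 and 41). The 4 members that were not higher included the strongest, near *Chkb* (70 and 55, 103 and 81) and on chromosomes 7 (78 and 72, 60 and 59) and 19 (87 and 78, 73 and 75). Over 14 such families the share of higher members ran from 0% to 75%, the latter in a family of 4 with 3 higher members.

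The windows of 3 members are shown so that the shared stretch around ATTGG can be read, namely the peaks near *Hdac2* (chr10:36965773-36965972), near *Rpl17-ps5* in an intron of *6030443J06Rik* (chr5:22609575-22609774) and on chromosome 4 (chr4:144837579-144837778). The identity was 80.4% between the first and the second over 179 bases and 84.6% between the second and the third over 162 bases.
Hdac2: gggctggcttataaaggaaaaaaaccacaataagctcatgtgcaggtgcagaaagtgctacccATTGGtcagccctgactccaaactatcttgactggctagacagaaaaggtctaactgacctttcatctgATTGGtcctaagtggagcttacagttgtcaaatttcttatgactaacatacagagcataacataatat
6030443J06Rik: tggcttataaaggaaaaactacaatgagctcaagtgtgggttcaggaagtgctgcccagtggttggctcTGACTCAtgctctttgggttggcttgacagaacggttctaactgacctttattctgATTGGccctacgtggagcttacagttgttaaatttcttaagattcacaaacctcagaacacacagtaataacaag
Chromosome 4: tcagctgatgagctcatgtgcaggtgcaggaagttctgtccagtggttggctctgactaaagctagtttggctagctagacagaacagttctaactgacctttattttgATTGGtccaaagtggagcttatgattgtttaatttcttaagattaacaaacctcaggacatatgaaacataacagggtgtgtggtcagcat

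A family of 4 comprised promoters of MHC class I heavy chain genes on chromosome 17, and 2 of them were higher. These were *H2-K1* (chr17:34000337-34000455; 9 and 10 in control, 17 and 21 in Taf4asKO) and *H2-Q4* (chr17:35379501-35379666; 19 and 10, 25 and 29). *H2-K2* (38 and 33, 37 and 34) and *H2-Q7* (11 and 16, 16 and 16) were not. The promoter of *B2m*, which encodes the light chain of class I molecules, was higher (chr2:122147530-122147707; 31 and 33, 45 and 57). It was named after its value had been seen, and the genotypes did not overlap there. Of 16 peaks at MHC and class I loading genes, a list also made after the values were seen, 5 were higher and 1, at *Tap2* (34 and 49, 25 and 19), was lower, beside 11.7% and 9.66% of all peaks, and the list supports nothing beyond this count. Windows of *H2-K1* and *H2-Q4* were 83.3% identical over 120 bases. A large family of 44 peaks, 39 of them at gene starts and all with CCAAT, had 6 higher (13.6%, near the background) and 1 lower members, and a family of 13 peaks had 0 higher and 5 lower.

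The higher peaks lay on the 19 autosomes and the X chromosome. Their share of the peaks with a mean above 10 ranged from 7.29% on the X chromosome (7 of 96, interval 3.58% to 14.3%) and 8.05% on chromosome 19 (14 of 174) to 15.4% on chromosome 6 (35 of 228) and 20.9% on chromosome 18 (27 of 129, 14.8% to 28.7%). The interval of chromosome 18 was the only one of 20 that did not include the share of 11.7% over all chromosomes. This chromosome had more weak peaks, as 37.2% of its peaks had means of 10 to 20. Within that range 20 of 48 peaks (41.7%) were higher on chromosome 18, compared with 25.2% on all chromosomes. Above a mean of 20 there were 7 of 81 (8.64%), compared with 6.00%, and above 50 there were 0 of 45. Lower peaks made up 8.53% of the peaks on chromosome 18, and its median log2 ratio was 0.04.

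**Figure D5:**
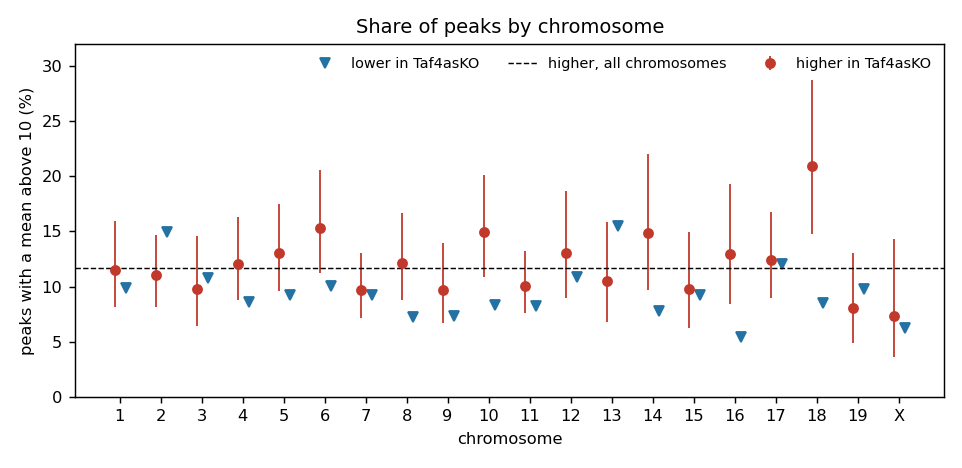
Percent of the peaks with a mean above 10 that were higher (circles, with 95% Wilson intervals) or lower (triangles) in Taf4asKO (y axis) on each chromosome (x axis), with a dashed line at the 11.7% of higher peaks overall. Only the interval of chromosome 18, from 14.8% to 28.7%, lies above the line.

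Along the chromosomes the higher peaks were mostly alone. With gaps under 100000 bases, 81 of the 549 (14.8%) fell into groups, 27 pairs and 9 groups of 3, and no group was larger. Of the 453 lower peaks, 107 (23.6%) were in groups, and the largest held 9. Of the 290 higher peaks with another peak of a mean above 10 within 100000 bases, the nearest was higher in 49 cases (16.9%) and lower in 26 (8.97%), and the median log2 ratio of these neighbours was -0.01. Within 2000 bases there were 52 such peaks, with 16 higher neighbours (30.8%) and 1 lower (1.92%). Of all peaks with a mean above 10, 11.7% were higher and 9.66% lower. Most nearest neighbours were thus among the peaks between.

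In 5 of the 9 groups of 3 every peak with a mean above 10 in the span was higher. One lay next to *Btg2* (chr1:134065370-134087290), with the intergenic peak of 77 and 85 in Taf4asKO described above, a weak one (7 and 7, 14 and 16) and the *Btg2* peak. One lay around *Aldh1l1* (chr6:90477111-90560603), a folate enzyme gene, where the strongest peak had 17 and 10 against 38 and 37. One lay at *Slc7a5* and *Banp* (chr8:121906539-122013982), with a peak in *Slc7a5*, an amino acid transporter gene, of 17 and 16 against 26 and 25. The last 2 were in the MHC region of chromosome 17. One held *H2-K1*, the promoter of *Hsd17b8* (32 and 16, 33 and 42) and a peak near *H2-Pb* (27 and 16, 39 and 39), and the other held a pair of peaks at *Prrc2a* (21 and 10, 20 and 31, and 23 and 10, 25 and 27) and an intronic peak assigned to the cytokine gene *Tnf* (16 and 20, 31 and 27). At the first *Prrc2a* peak the genotypes overlapped. Each span ran from the first to the last higher peak of its group, so both ends were higher by construction. Peaks just outside a span were not counted, such as *H2-K2* before the *H2-K1* group (38 and 33 in control, 37 and 34 in Taf4asKO).

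The other 4 groups also held peaks that were not higher. They were at *Adam15*, *Shc1* and *Pygo2* (chr3:89348857-89430338, 3 of 7 peaks), at *Mmel1* and *Prxl2b* (chr4:154883876-154946648, 3 of 4), at *Gm20441*, *Gstt2* and *Chchd10* (chr10:75781065-75930653, 3 of 5) and at *Pcdhgc5* and *Diaph1* (chr18:37819297-37924510, 3 of 6). Their higher peaks were weak, with no Taf4asKO value above 29.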

How the data were processed

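NF-YA was profiled by CUT&RUN in MuSCs, and the submitters' processing notes name Trimmomatic 0.39, STAR 2.7.11a, Picard 3.1.1, featureCounts, DESeq2 1.36.0 and the build mm10. The authors called peaks with MACS against IgG, merged them, counted reads per peak, normalised the counts with DESeq2 and rounded them, so that the deposited values are a score and not raw counts. Peaks were annotated by the authors with the nearest gene start within about 10000 bases. Because values of 1 Taf4asKO read lie below the rounding unit, whole reads were not recovered there and no count model was run. Reads in peaks were 351696 and 111269 in the control libraries and about 735404 and 505241 in the Taf4asKO libraries. Reads without molecular identifiers are not independent molecules, and intervals over peaks treat peaks as independent and cover only their number.

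Group means were taken per genotype from the columns named in the labels, and 0 columns belonged to other samples. The members, gene lists and rules for naming peaks were chosen with earlier results of these data known. Named were the 10 largest ratios (1 added) without overlap of the genotypes, the 10 highest means, the 10 strongest at protein-coding starts without overlap, peaks of listed genes, the 5 strongest at non-coding genes, groups of 3 or more with gaps under 100000 bases, and 3 peaks on each side of the threshold, of which 1 is not reported here. Others are said to be named after their values were seen or were among the 16 limma calls. limma 3.58.1 in R 4.3.3 was fitted to log2(value + 1) with a trended variance over the 4746 peaks with a mean of at least 10, with Benjamini-Hochberg adjustment, and was tested on simulated data. Positions came from GENCODE M21 (3972 of 3978 gene IDs found) and sequence and masking from GRCm38.p6, with pysam 0.24.0 and blastn 2.17.0+. Shares have 95% Wilson intervals (statsmodels 0.14.6). Shares at the mean values of the higher peaks weight 4 ranges of mean value by the number of higher peaks in them. Alternatives were 3 other scalings, other thresholds and windows, a replicate block and leaving out each library. Those for TGANTCA and CAGCTG were chosen after seeing the data.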

Additional observations from a re-analysis of the deposited data

How the results depend on the processing

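The number of higher peaks, 549 as reported, was 832 with equal library totals, 1004 when scaled on strong peaks (mean of 100 or more), 201 at a ratio above 2, 198 at a mean above 20 and 30 above 50, 546 with equal medians, and 486 to 857 without one library, the highest without control replicate 1. All 549 were among the 832 and the 1004. The count without overlap of genotypes was 759, 929, 198, 186 and 30 in the same order. As deposited, both Taf4asKO values lay above both control values at 19.1% of all 4689 peaks. That share was not computed under the other settings. Nothing is read from these counts, because the contrast chose the peaks.

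The share at gene starts was 35.5% with equal totals, 37.5% centred on strong peaks, 20.9% at a ratio above 2, 35.4% at a mean above 20, 36.7% above 50, 24.5% with 5 added, and 22.8% to 41.5% without one library, the highest without Taf4asKO replicate 1. It was 23.5% within 500 bases, 35.3% within 2000 and 25.5% for protein-coding starts, where other peaks had 51.4%, 61.5% and 52.7%. The share with no assigned gene was 37.1%, 35.9%, 52.2%, 37.9%, 36.7% and 46.6% under the first 6 of these, and 34.0% to 49.2% without one library.

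The share with CCAAT was 92.0% at a ratio above 2, 90.9% at a mean above 20 and 74.1% in the central 100 bases. That in masked repeats was 0% of 30 peaks above a mean of 50, and 7.10% when any masked centre counted. TGANTCA was found in 27.3% after centring on strong peaks, 36.8% of whole peaks and 23.9% to 36.0% without one library, lowest without control replicate 1, when the peaks between had 15.6% and the lower peaks 20.4%, so that most of the gap to the lower peaks was lost. CAGCTG was found in 11.1% at a mean above 20 and 10.0% above 50. On chromosome 18 the share of higher peaks stayed above that of all chromosomes without any one library, at 18.4% to 26.4%. These sets share libraries with the values that singled out the chromosome, so this adds no support.

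Among the 549, limma called 29 with equal totals, 35 with equal medians and 50 centred on strong peaks, out of 30, 36 and 54 higher calls in all. It called 0 with no minimum on the mean (270 at an unadjusted p under 0.05, of 490 in all), 0 with no trend in the variance (357 of 380) and 0 without any one library, where the lone library is taken to vary like the others. With the replicate block 3 were called. The numbers were not shown to pair the libraries, whose deviations correlated at -0.09 over peaks with a mean of 10 or more and at 0.26 over those with a mean of 100 or more. Of the peaks chosen in replicate 2, 61.6% were higher in replicate 1. With equal medians, 69.4% of those chosen in replicate 1 were higher in replicate 2 and 71.6% in the reverse direction, against 44.3% and 44.7% of all peaks. With equal totals these were 76.9% and 79.9%, against 58.4% and 57.0%. The cause of these moves was not tested. The few control reads limit what can be said of single weak peaks.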
